A study of Mus musculus with 2 samples.

Results

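The IgE receptor and ITAM adaptor genes are 9 genes, chosen by symbol from the 32285 genes of the count matrix: the receptor chains Fcer1a, Ms4a2 and Fcer1g, the membrane adaptors Tyrobp and Hcst, the kinases Lyn and Syk, and the scaffold proteins Lat and Lat2. All 9 were found in the matrix. They were followed across mast-like cell states, basophil-like, monocyte-like and ILC2-like cells of fetal mouse lung, and between litters of dexamethasone-treated (DEX) and PBS-treated mothers.

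The study asked how glucocorticoid given in pregnancy bears on innate lymphoid cells of the fetal lung, and the single-cell experiment covered 4 litters, 2 of DEX-treated mothers (DEX-1 and DEX-2) and 2 of PBS-treated mothers (PBS-1 and PBS-2). All mothers were wild-type mice aged 9 weeks at pregnancy, given DEX at 1.3 µg/ml in the drinking water from gestation day 12 or PBS as the control, and fetal lungs were taken on gestation day 18. The lungs of each litter were pooled (8 and 9 fetuses in the DEX litters, 5 and 8 in the PBS litters), so each group had 2 pooled replicates, and a difference between treatments cannot be told apart from a difference between mothers. The labels give each litter its own mother, but the sources used here differ on the number of mothers, and the p-values below take the 4 litters as independent. Live CD45+ lineage-negative ST2+ cells (ST2 being the IL-33 receptor) were sorted, and the litters were marked with hashtag antibodies and run together as a single 10x library. The lineage cocktail of the fetal sort included CD3e, CD4, CD8A, CD11b, CD11c and TER119 antibodies and held none against the IgE receptor.

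Mast cells and basophils carry the high-affinity IgE receptor FcεRI, in which the alpha chain binds IgE and the beta and gamma chains carry ITAMs, short tyrosine motifs that are phosphorylated by Lyn when antigen crosslinks the receptor. Syk then docks on the phosphorylated ITAMs and phosphorylates the scaffolds Lat and Lat2, which gather the enzymes that raise calcium and lead to degranulation. Tyrobp is a second ITAM adaptor, shared by many activating receptors of myeloid and NK cells, and Hcst is its companion with a PI3-kinase docking motif in place of an ITAM.

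In genome build GRCm38 with GENCODE M21, Fcer1a (ENSMUSG00000005339) lies at chr1:173221284-173227214 and Fcer1g (ENSMUSG00000058715) at chr1:171229572-171234365, both on the minus strand. Ms4a2 (ENSMUSG00000024680) lies at chr19:11615523-11623719 on the minus strand. Tyrobp (ENSMUSG00000030579, chr7:30413760-30417585, plus strand) and Hcst (ENSMUSG00000064109, chr7:30417712-30419854, minus strand) are tail-to-tail neighbours with 126 bases between them. Lat (ENSMUSG00000030742) lies at chr7:126363824-126369570 on the minus strand, and Lat2 (ENSMUSG00000040751) at chr5:134600022-134615025 on the minus strand. The kinase genes Lyn (ENSMUSG00000042228, chr4:3678115-3813122) and Syk (ENSMUSG00000021457, chr13:52583173-52648792) are on the plus strand.

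The RefSeq promoter table (GRCm38.p6) held an entry for 6 of the 9 members; Tyrobp, Lat2 and Lyn had none. The 250 bases before the transcription start are given 5′ to 3′ on the transcript strand for the 3 receptor chains, because their levels parted between the cell states described below, with capitals marking AGATAA or its reverse complement, the letters bound by GATA factors of the mast cell and basophil lineages. They cover chr1:173227230-173227479 for Fcer1a, chr19:11623720-11623969 for Ms4a2 and chr1:171234350-171234599 for Fcer1g, all minus strand.
Fcer1a promoter: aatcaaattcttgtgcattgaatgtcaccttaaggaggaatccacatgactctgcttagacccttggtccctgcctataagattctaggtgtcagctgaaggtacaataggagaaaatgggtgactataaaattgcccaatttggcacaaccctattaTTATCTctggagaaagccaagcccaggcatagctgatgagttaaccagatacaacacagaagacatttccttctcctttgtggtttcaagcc
Ms4a2 promoter: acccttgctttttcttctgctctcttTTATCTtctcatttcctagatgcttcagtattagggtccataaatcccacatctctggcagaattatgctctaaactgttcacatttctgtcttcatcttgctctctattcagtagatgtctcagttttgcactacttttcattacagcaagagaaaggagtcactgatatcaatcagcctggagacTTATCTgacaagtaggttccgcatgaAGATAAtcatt
Fcer1g promoter: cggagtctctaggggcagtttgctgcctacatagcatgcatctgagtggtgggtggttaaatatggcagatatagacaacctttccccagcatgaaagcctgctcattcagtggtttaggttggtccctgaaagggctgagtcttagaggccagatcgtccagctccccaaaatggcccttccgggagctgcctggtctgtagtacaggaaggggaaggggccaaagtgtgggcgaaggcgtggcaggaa
The Ms4a2 window held 3 matches to AGATAA on either strand, at 224 to 219, 37 to 32 and 11 to 6 bases before the start, the Fcer1a window held 1, at 92 to 87 bases before the start, and the Fcer1g window held none. Over 32851 promoters of the same length, 9.99% held AGATAA, 7.94% held TGATAA and 16.6% held either. A match here describes the letters only.

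The same window is given for Lat and Hcst, the members that were lower in DEX litters in ILC2-like cells (Lat past the threshold, Hcst short of it), with capitals marking AGAACA or its reverse complement, part of the motif of the glucocorticoid receptor. They cover chr7:126369569-126369818 for Lat and chr7:30419855-30420104 for Hcst, both minus strand.
Lat promoter: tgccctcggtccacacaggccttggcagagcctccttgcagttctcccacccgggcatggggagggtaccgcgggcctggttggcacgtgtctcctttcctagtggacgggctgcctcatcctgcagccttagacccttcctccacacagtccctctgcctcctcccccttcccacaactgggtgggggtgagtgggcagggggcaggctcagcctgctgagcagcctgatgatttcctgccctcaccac
Hcst promoter: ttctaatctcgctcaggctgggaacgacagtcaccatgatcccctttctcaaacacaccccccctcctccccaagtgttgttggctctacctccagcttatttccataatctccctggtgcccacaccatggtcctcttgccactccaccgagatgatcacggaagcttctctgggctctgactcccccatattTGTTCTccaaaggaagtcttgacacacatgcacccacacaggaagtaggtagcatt
The Hcst window held 1 match, at 56 to 51 bases before the start, and the Lat window held none, against 16.1% of all promoters with at least 1.

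Of 10648 barcodes with 119146805 gene UMIs (unique molecules counted), 7268 were assigned to a single litter, between 1737 and 1890 per litter. Clusters were named from fixed marker lists, with the 9 members and most of the other signalling genes kept out of the clustering. Cd3d, Cd3e, Cd79a, Cd79b and Siglech were not kept out, since they are also cell type markers. The clusters gave 2433 mast-like, 2074 ILC2-like, 493 basophil-like and 187 monocyte-like cells beside B-like, epithelial-like, endothelial-like and mesenchymal-like cells. No cluster could be named macrophage-like or neutrophil-like. In the ILC2-like class 9 of 10 ILC2 markers, in the mast-like class 8 of 10 mast cell markers and in the basophil-like class 7 of 8 basophil markers were found in at least 25% of cells. The monocyte-like class was a single cluster in which 5 of 7 monocyte and 4 of 8 macrophage markers reached that share, C1qa and C1qb were at 0, and the leading genes Wfdc17, Ccl6 and Ear2 were in neither list. Levels below are UMIs of a gene per 1000000 gene UMIs of the class in a litter (CPM). They compare a gene between cells but not 1 gene with another. Rankings of classes leave out the unnamed clusters. Among these, a cluster of 63 cells led by S100a9 and S100a8 had 3393 to 5185 CPM of Fcer1g and 3899 to 4849 CPM of Tyrobp. Its Lyn (289 to 522 CPM) and Syk (104 to 257 CPM) overlapped the B-like ranges.

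Fcer1a, the IgE-binding alpha chain, was a gene of mast-like and basophil-like cells. In basophil-like cells it stood at 111, 113, 119 and 91.2 CPM in DEX-1, DEX-2, PBS-1 and PBS-2. In mast-like cells it stood at 69.4, 50.7, 103 and 61.7 CPM in the same order. As class averages, every litter had more in basophil-like than in mast-like cells, although the ranges over litters overlapped. The mast-like cluster led by Mrgprb1 and Mrgprb2 (204 to 386 CPM, described below) lay above both basophil-like clusters. ILC2-like cells held 1 Fcer1a UMI in 17649048, so that the mast-like level was 1227 times as high, with a counting interval of 219.8 to 48491. Monocyte-like cells held 0 UMIs in 1725905, which allows up to 1.74 CPM (3 counts), and the mast-like level was at least 40-fold higher than that limit. B-like cells held 0 UMIs as well.

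Ms4a2, the beta chain that amplifies the receptor's signal, followed the same cells with a wider gap. Basophil-like cells had 351, 364, 405 and 426 CPM. Mast-like cells had 75.1, 98.3, 111 and 97.4 CPM. The ranges were far apart, and no litter of one class came near the other class. ILC2-like cells held 7 UMIs in all, between 0 and 0.762 CPM per litter, and monocyte-like cells held 2 UMIs, where the ratio of mast-like to monocyte-like levels was 82.4 with a counting interval of 22.8 to 681.

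Fcer1g, the gamma chain that FcεRI shares with Fc receptors for IgG, was high in all 3 myeloid classes. Mast-like cells had 3305, 3210, 3398 and 3489 CPM. Basophil-like cells had 2666, 2663, 2801 and 2261 CPM, and monocyte-like cells 2475, 2391, 2752 and 2762 CPM. The mast-like range lay above both others, which overlapped each other. ILC2-like cells had between 11.5 and 30.01 CPM and B-like cells between 4.90 and 309 CPM. Mesenchymal-like cells, which are not known to use this chain, had 484 to 1089 CPM, and the part of RNA from other cells in that value was not tested.

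Tyrobp, the second ITAM adaptor, had its highest level in basophil-like cells, with 3876, 4569, 4846 and 3330 CPM. Monocyte-like cells followed with 2851, 2848, 2940 and 3262 CPM, and mast-like cells with 2427, 2149, 2365 and 2202 CPM. These 3 ranges did not overlap. ILC2-like cells had between 8.27 and 42.4 CPM, below the lowest of B-like cells (103 to 338 CPM) and of epithelial-like cells (117 to 199 CPM).

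Hcst, the companion adaptor next to Tyrobp on chromosome 7, was distributed otherwise and had its highest levels in ILC2-like and basophil-like cells. ILC2-like cells had 205, 205, 250 and 256 CPM. Basophil-like cells had 199, 238, 216 and 208 CPM. Those ranges overlapped, while mast-like cells (90.5 to 103 CPM) and monocyte-like cells (61.7 to 67.4 CPM) lay below them without overlap.

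Lyn, the Src family kinase that starts ITAM phosphorylation, was highest in B-like cells (406 to 453 CPM), in which it serves the B cell receptor. Monocyte-like cells had 269, 339, 341 and 339 CPM. Mast-like cells had 248, 234, 258 and 230 CPM, and basophil-like cells 117, 111, 113 and 103 CPM. These ranges were apart in that order, and ILC2-like cells came last among them with 21.1 to 35.4 CPM. Syk, the kinase that binds phosphorylated ITAMs, was likewise highest in B-like cells (216 to 304 CPM), followed by monocyte-like cells with 191, 116, 127 and 149 CPM. Basophil-like cells had 33.2 to 45.7 CPM and mast-like cells 31.4 to 46.7 CPM, which overlapped. ILC2-like cells held 55 Syk UMIs in all, 2.50 to 4.72 CPM, the lowest median of the 8 classes, with overlap only with epithelial-like cells (2.97 to 8.54 CPM).

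The scaffolds differed in which lymphoid class held them. Lat, the scaffold of T cell and mast cell receptors, had 191, 194, 286 and 267 CPM in ILC2-like cells. Mast-like cells had 157, 173, 196 and 202 CPM, and basophil-like cells 167, 142, 125 and 148 CPM. Neighbours in this order overlapped, and monocyte-like cells (2.57 to 23.3 CPM) and B-like cells (0 to 34.3 CPM) were far lower. Lat2, its homologue in B and myeloid cells, had 462, 425, 404 and 309 CPM in basophil-like and 368, 340, 360 and 378 CPM in mast-like cells, again with overlap. B-like cells had 97.5 to 191 CPM, while ILC2-like cells had 6.92 to 10.9 CPM and monocyte-like cells 5.61 to 23.3 CPM.

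**Figure D1:**
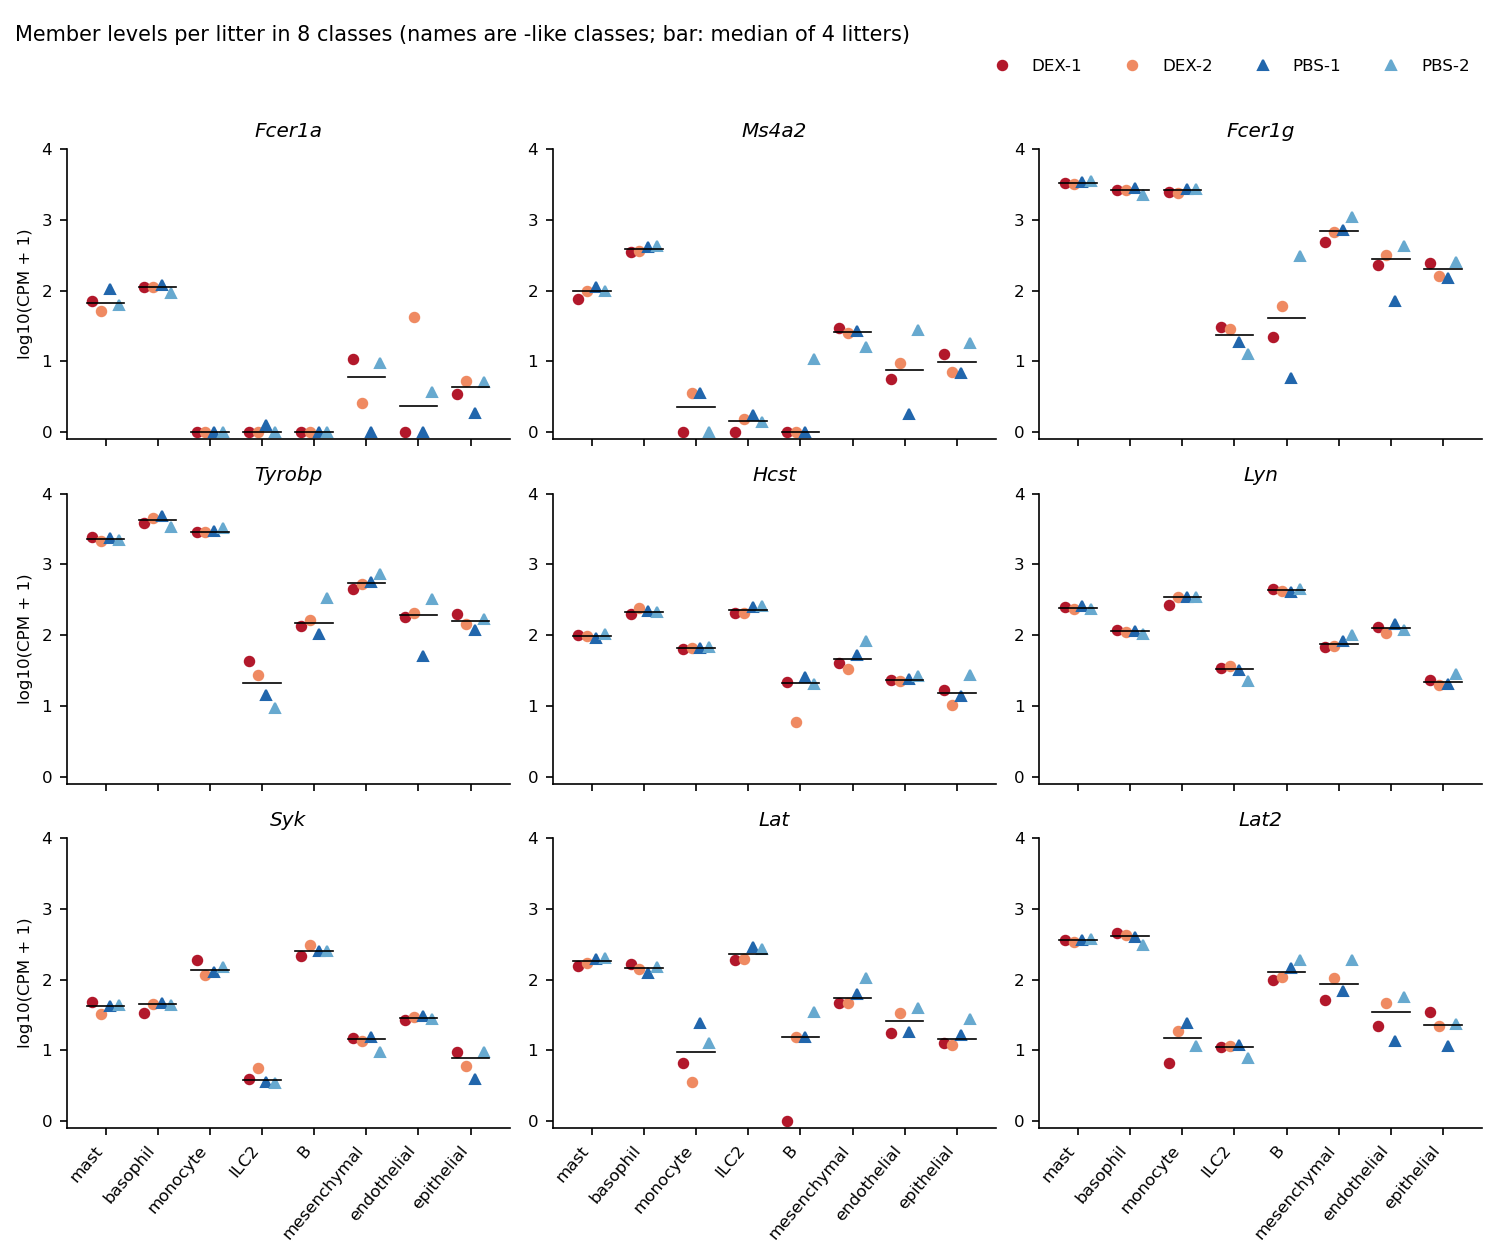
Each panel shows a member, with the 8 classes on the horizontal axis and log10(CPM + 1) on the vertical axis. Points are the 4 litters and the bar is their median. Fcer1a and Ms4a2 stood out in mast-like and basophil-like cells, Fcer1g and Tyrobp also in monocyte-like cells, Hcst and Lat also in ILC2-like cells, and Syk and Lyn were highest in B-like cells.

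The first comparison set basophil-like against mast-like cells within litters, to ask how the receptor's parts differ between its main carriers. In edgeR's quasi-likelihood test with the litter as a block, 44.4% of 10653 genes passed an adjusted p of 0.05, and all 9 members were tested. Of these, 5 were higher in basophil-like cells, 1 was lower and 3 did not pass. Ms4a2 was higher by 2.23 ± 0.11 (log2 fold change ± SE, 4 litters, edgeR adjusted p = 1.61e-09), Hcst by 1.36 ± 0.12 (edgeR adjusted p = 5.34e-07), Tyrobp by 1.06 ± 0.11 (edgeR adjusted p = 4.35e-06) and Fcer1a by 0.86 ± 0.15 (edgeR adjusted p = 0.000338). Lyn was lower by 0.91 on the same scale (log2 fold change -0.91 ± 0.11, edgeR adjusted p = 1.14e-05). Lat2 passed at 0.35 ± 0.13 (edgeR adjusted p = 0.0380), and Fcer1g (-0.16 ± 0.10, edgeR adjusted p = 0.206), Syk (0.29 ± 0.18, edgeR adjusted p = 0.214) and Lat (-0.11 ± 0.13, edgeR adjusted p = 0.491) did not. With library totals in place of TMM scaling the median of all genes moved from -0.07 to -0.28 and the split of calls from 2319 higher and 2416 lower to 1703 and 3560. Under that scaling Lat2 no longer passed (0.14, edgeR adjusted p = 0.348) and Fcer1g passed as lower (-0.37, edgeR adjusted p = 0.00488).

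Other genes of the pathway also parted between basophil-like and mast-like cells. Of 20 downstream signalling genes tested, 5 were higher in basophil-like cells, among them the Tec kinase gene Tec (2.84 ± 0.14), the PI3-kinase subunit Pik3cd (1.92 ± 0.18) and the calcium channel Orai1 (1.80 ± 0.12). The 9 that were lower included the adaptor Grap2 (-2.72 ± 0.37), the protein kinase C gene Prkcb (-2.58 ± 0.13) and the IP3 receptor Itpr1 (-1.49 ± 0.21), and the median over the list was -0.32 against -0.07 over all genes. In basophil-like cells alone 17 of these 20 genes passed the filter on low counts. The rest entered through mast-like cells, which bears on their direction and on the median. Of 14 phosphatases and inhibitors, 7 were higher, with the inhibitory receptors Cd300a (2.18 ± 0.16), Pirb (2.13 ± 0.22) and Fcgr2b (2.07 ± 0.13) in front, and 2 were lower, the lipid phosphatase Inpp5d (-1.84 ± 0.11) and the ubiquitin ligase Cblb (-1.53 ± 0.15), with a list median of 0.64. Of 6 tested Src family kinases and regulators, the Csk-binding protein Pag1 (2.08 ± 0.24), the phosphatase Ptprc (0.71 ± 0.11) and Csk (0.51 ± 0.13) were higher and Src (-1.68 ± 0.21) was lower, with a list median of 0.29.

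Of 14 receptors that signal through Fcer1g or Tyrobp, 4 passed the filter on low counts, 3 of them with few counts in mast-like cells, so that they entered the test only through basophil-like cells and their direction was fixed by it. The C-type lectin Clec4e had 276 CPM against 2.54 CPM in mast-like cells, and its relative Clec4d 27.0 against 0.756 CPM. Cd300lb had 50 UMIs in basophil-like and 0 in mast-like cells, and the IgG receptor Fcgr3 was higher by 0.87 ± 0.10. Of the 2 ITAM chains of antigen receptors that could be tested, Cd79b was higher (1.68 ± 0.20) and Cd3g lower (-2.02 ± 0.27) in basophil-like cells. Cd79b was among the genes not kept out of the clustering. All of these calls are from the edgeR fit just described, and counts per list are to be read against its 44.4% of all genes.

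ILC2-like against mast-like cells differed in all 9 members, in a fit where 67.4% of 11688 genes passed. Fcer1a and Ms4a2, near 0 in ILC2-like cells as given above, passed the filter on low counts only through mast-like cells. That fixed their direction, so nothing is read from these calls or from the count of all 9. Fcer1g was lower by 7.42 on the log2 scale (-7.42 ± 0.19, edgeR adjusted p = 1.69e-12), Tyrobp was at -6.88 ± 0.26 (edgeR adjusted p = 7.67e-11) and Lat2 at -5.37 ± 0.12 (edgeR adjusted p = 4.64e-13). Both kinases were lower too, Syk at -3.80 ± 0.19 (edgeR adjusted p = 1.52e-09) and Lyn at -3.13 ± 0.11 (edgeR adjusted p = 2.78e-11). Hcst was higher in ILC2-like cells by 1.11 ± 0.08 (edgeR adjusted p = 7.35e-08). Lat was higher by 0.23 ± 0.07 (edgeR adjusted p = 0.0135), a call that was lost without PBS-1 (0.17, edgeR adjusted p = 0.0911) or PBS-2 (0.22, edgeR adjusted p = 0.0685). With library totals the median of all genes moved from -0.01 to 0.11 and the split of calls from 3873 higher and 4008 lower to 4550 and 3447.

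Other pathway genes differed between ILC2-like and mast-like cells in both directions. Zap70, the Syk homologue of T cells, had 140 CPM against 0.378 CPM in mast-like cells, Lck had 43.2 against 0.378 CPM and Yes1 22.7 against 1.83 CPM, and 6 of 9 tested Src family kinases and regulators were higher. Fyn, another kinase of that list, was lower (-0.68 ± 0.10). Of the ITAM chains of antigen receptors, Cd3e had 50.3 against 0.108 CPM, Cd247 20.2 against 0.486 CPM and Cd3d 9.52 against 0.324 CPM, but these 3, like Zap70 and Lck, passed the filter on low counts only through ILC2-like cells, which fixed their direction, so nothing is read from the count of higher genes. Of 20 downstream genes, 6 were higher, with Grap2 (1.89 ± 0.07), Pik3cd (0.81 ± 0.12) and Orai1 (0.78 ± 0.09) in front, and 11 were lower, led by the kinase Btk (-5.28 ± 0.13), the adaptor Gab2 (-4.76 ± 0.12) and Prkcb (-4.001 ± 0.08). Of 14 phosphatases and inhibitors, 4 were higher, with the phosphatase Ptpn22 (2.68 ± 0.10), the adaptor Dok2 (2.06 ± 0.10) and the ubiquitin ligase Cbl (1.26 ± 0.12) in front. The 8 that were lower included Fcgr2b, Pirb and Cd300a, each with 2 UMIs in ILC2-like cells, against 626, 372 and 243 UMIs in mast-like cells. Among the partner receptors, Klrk1, the NKG2D receptor that pairs with Hcst, had 81 UMIs in ILC2-like and 0 in mast-like cells, while Fcgr3 (-7.93 ± 0.17), Pilrb1 (0 against 50 UMIs) and Clec4e (3 against 47 UMIs) were lower. These receptors too passed the filter only through the class where they were high, which fixed their direction. The medians of the Src family, downstream and inhibitor lists were 0.70, -0.42 and -1.04 against -0.01 over all genes. They include genes that entered the fit through a single class, such as Zap70, Lck, Btk, Fcgr2b, Pirb and Cd300a, so nothing is read from them.

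The 5 mast-like clusters and the basophil-like clusters differed most in Fcer1a. The mast-like cluster led by Mrgprb1 and Mrgprb2, receptors of connective tissue mast cells, had 386, 248, 379 and 204 CPM of Fcer1a. The cluster led by Cma1 and Syngr1 had 105, 89.5, 168 and 117 CPM, and the one led by Tpsab1 and Tpsb2 had 51.9, 40.7, 83.9 and 51.5 CPM. The cluster led by Mcpt2 and H19 had 15.03, 21.6, 24.9 and 28.8 CPM, and the one led by Gzmb and the replication gene Pclaf 9.90, 16.3, 1.503 and 10.8 CPM. All 4 litters put the 5 clusters in this order, and of neighbouring ranges only those of the last pair overlapped. An unnamed cluster led by Gzmb and Scin, in which 6 of 10 mast cell markers were found in at least 25% of cells, had 4.29, 21.0, 0 and 4.65 CPM.

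Ms4a2 did not share that order. Its range was 53.4 to 137 CPM in the Mrgprb1 cluster, 72.8 to 150 CPM in the Mcpt2 and H19 cluster, 81.1 to 118 CPM in the Cma1 cluster, 83.7 to 109 CPM in the Tpsab1 cluster and 55.4 to 81.2 CPM in the Gzmb and Pclaf cluster, and of these neighbours only the last pair did not overlap. Fcer1g was highest in the Cma1 and Syngr1 cluster (5875 to 6323 CPM), lower in the Mrgprb1 cluster (3737 to 4373 CPM) and lowest in the Gzmb and Pclaf cluster (1725 to 2078 CPM). Tyrobp was also highest in the Cma1 cluster (3187 to 3393 CPM) and lowest in the Gzmb and Pclaf cluster (959 to 1198 CPM), and the other mast-like clusters lay between. The Cma1 cluster was also the shallowest, with a median of 3002 UMIs per cell against 8838 in the Mrgprb1 cluster and 21247 in the Gzmb and Pclaf cluster.

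Lyn did not follow Fcer1a over the mast-like states. It was highest in the Mcpt2 and H19 cluster (366 to 419 CPM), next in the Tpsab1 cluster (204 to 261 CPM), then 141 to 162 CPM in the Gzmb and Pclaf cluster, 122 to 152 CPM in the Mrgprb1 cluster and 83.5 to 131 CPM in the Cma1 cluster. The first 2 ranges lay apart from each other and from the rest, and neighbours among the other 3 overlapped. Lat2 was highest in the Mrgprb1 cluster (461 to 572 CPM) and lowest in the Gzmb and Pclaf cluster (139 to 253 CPM). Lat ranged from 74.2 to 115 CPM in the Gzmb and Pclaf cluster and from 137 to 255 CPM over the other 4 mast-like clusters, and Hcst was 122 to 177 CPM in the Cma1 cluster against 49.5 to 66.1 CPM in the Gzmb and Pclaf cluster. Syk stood at 50.3 to 73.7 CPM in the Mrgprb1 cluster, overlapping the 45.7 to 62.2 CPM of the Mcpt2 and H19 cluster, and at 13.5 to 32.2 CPM over the Cma1 and the Gzmb and Pclaf clusters.

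Both basophil-like clusters had Ms4a2 above every mast-like cluster. The larger one, led by Ccl4 and Ccl3, had 306 to 400 CPM of Ms4a2 and 95.2 to 123 CPM of Fcer1a. The smaller one, led by Mcpt8 and Prss34, had 53 cells in all and 5 in DEX-1. It had 289, 527, 544 and 498 CPM of Ms4a2 and 0, 152, 174 and 80.4 CPM of Fcer1a. In Fcer1a both basophil-like clusters lay below the Mrgprb1 cluster (204 to 386 CPM), and both overlapped the Cma1 cluster (89.5 to 168 CPM).

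**Figure D2:**
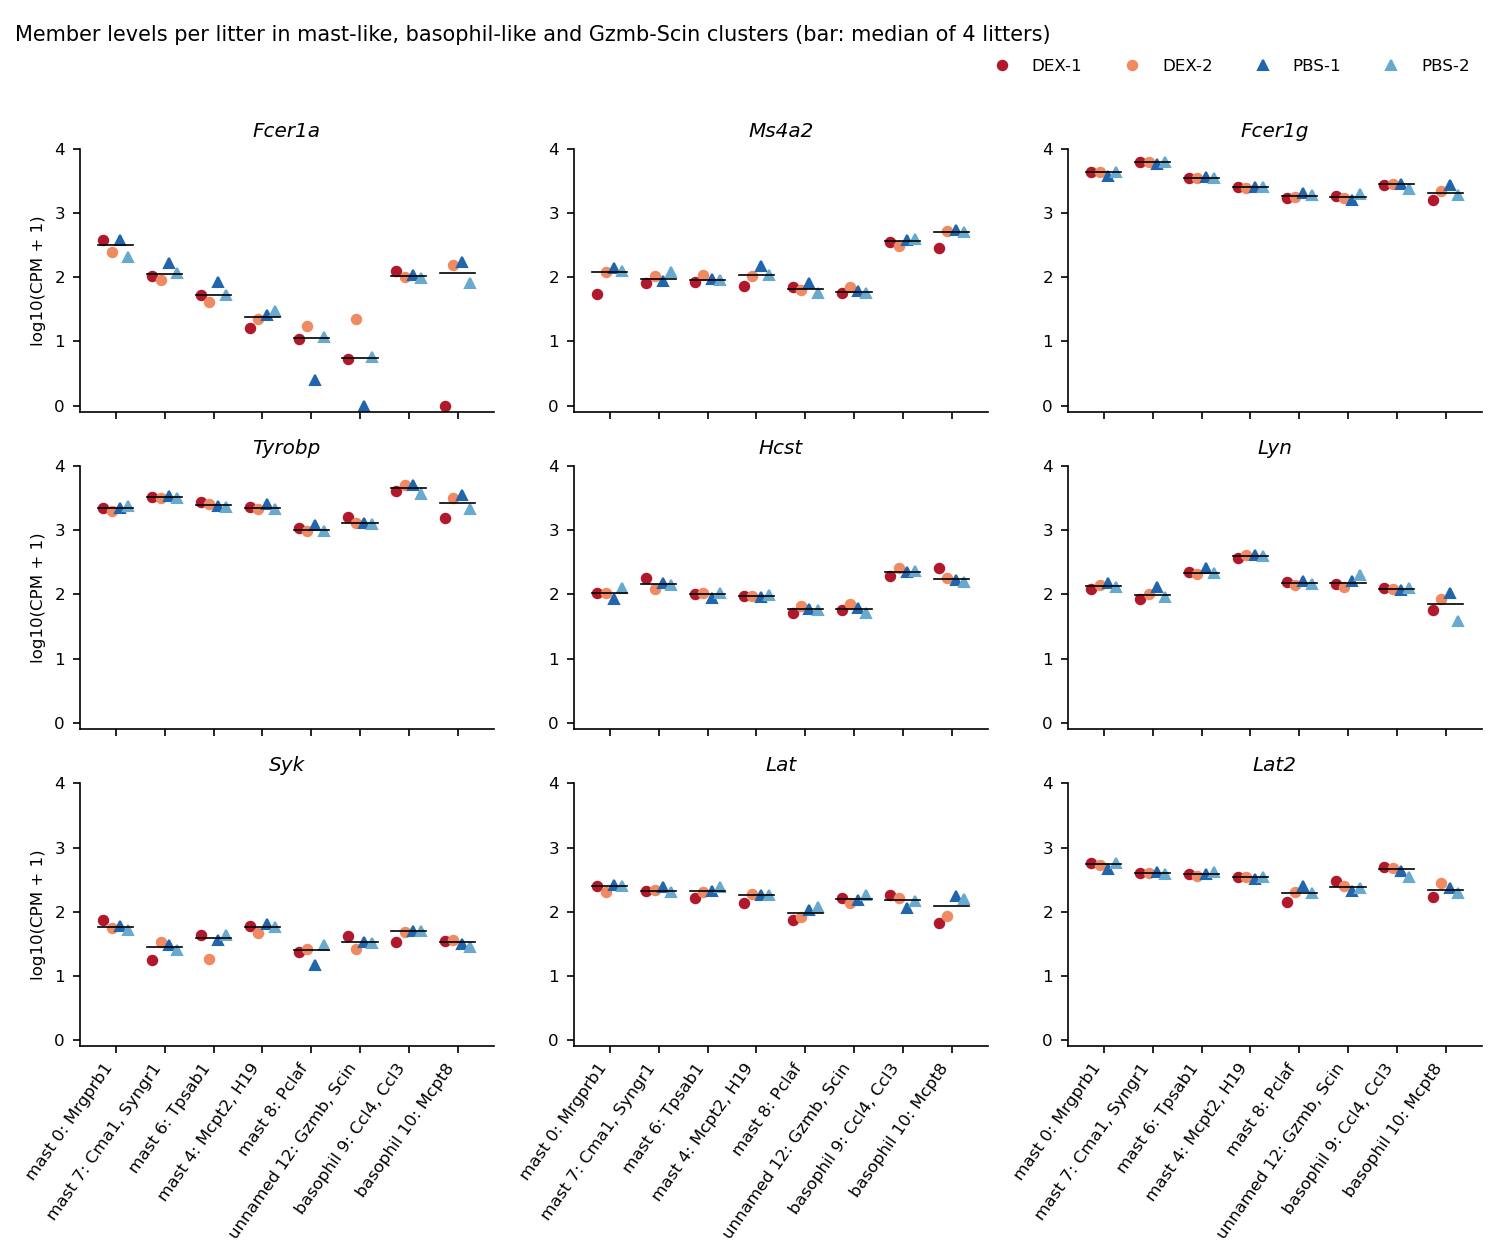
Each panel shows a member, with 5 mast-like clusters, the unnamed cluster led by Gzmb and Scin and 2 basophil-like clusters on the horizontal axis, named by leading genes, and log10(CPM + 1) on the vertical axis. Points are the 4 litters and the bar is their median. Fcer1a stepped down from the Mrgprb1 cluster (204 to 386 CPM) to the Pclaf cluster (1.503 to 16.3 CPM), while Ms4a2 stayed within 53.4 to 150 CPM over the mast-like clusters.

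Over the 21 clusters of at least 50 cells, likeness was described by Pearson's r of log2(CPM + 1) between each member and 12406 other genes. All points came from the same library, and cell types with many clusters weigh more, so no p is given. Nearest to Fcer1a were Cd200r3 (r = 0.935), Cd200r4 (0.917) and Gm33699 (0.906), and nearest to Ms4a2 were P2rx1 (0.960), Gata2 (0.952) and BC016579 (0.951). For Fcer1g they were Fcgr3 (0.985), Lst1 (0.962) and Csf2rb (0.960), and for Tyrobp Fcgr3 (0.978), Plek (0.956) and Lst1 (0.955). For Hcst they were Cd200r1 (0.953), Coro2a (0.922) and Samsn1 (0.912), for Lat Tespa1 (0.947), Prkcq (0.943) and Tnfaip3 (0.932), and for Lat2 Grm6 (0.937), Cyp11a1 (0.930) and Cd200r3 (0.925). Syk had Wdfy4 (0.917), Myo7a (0.911) and B3gnt8 (0.889), and Lyn had Myo7a (0.857), Erp29 (0.855) and Zeb2os (0.854). Among the members themselves Fcer1g and Tyrobp were the closest pair (0.987), Fcer1a and Ms4a2 reached 0.866, Syk and Lyn 0.858 and Hcst and Lat 0.779, whereas Tyrobp and Hcst, the neighbours on chromosome 7, reached 0.179 and Syk and Lat -0.374.

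The comparison of DEX with PBS litters asked whether maternal glucocorticoid moved these genes within a cell class. In ILC2-like cells (455 to 577 per litter) 2.47% of 10632 genes passed in the edgeR fit over all genes, 127 higher and 136 lower in DEX. Of the 9 members, 7 passed the filter on low counts, Fcer1a and Ms4a2 did not, and 3 of the 7 were called. Litters differ in cell numbers, and with pooled fetuses the p-values measure the spread between 2 litters per group only.

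Lat, expressed by ILC2-like cells at large, was lower in DEX litters. It had 191 and 194 CPM in DEX-1 and DEX-2 against 286 and 267 CPM in PBS-1 and PBS-2. Both DEX litters lay below both PBS litters. The log2 fold change was -0.51 ± 0.08 (edgeR adjusted p = 0.00207). Hcst had 205 and 205 CPM in DEX and 250 and 256 CPM in PBS, again without overlap, but the change of -0.29 ± 0.07 fell short of the threshold (edgeR adjusted p = 0.0553). The UMIs of both genes were spread over many cells, since the 5 cells with most of them held 4.10% to 5.80% of Lat UMIs and 4.06% to 5.77% of Hcst UMIs per litter.

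Tyrobp was higher in DEX litters at a level that was low throughout. It had 42.4 and 26.2 CPM in DEX-1 and DEX-2 against 13.5 and 8.27 CPM in PBS-1 and PBS-2, or 199, 100, 53 and 43 UMIs. The litters did not overlap, and the log2 fold change was 1.72 ± 0.24 (edgeR adjusted p = 0.00130). Fcer1g had 30.01 and 27.8 CPM against 17.8 and 11.5 CPM, also without overlap, and rose by 1.02 ± 0.19 (edgeR adjusted p = 0.00927). In DESeq2 Tyrobp and Lat passed (DESeq2 adjusted p = 7.06e-05 and 0.000665) and Fcer1g did not (DESeq2 adjusted p = 0.0543).

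**Figure D3:**
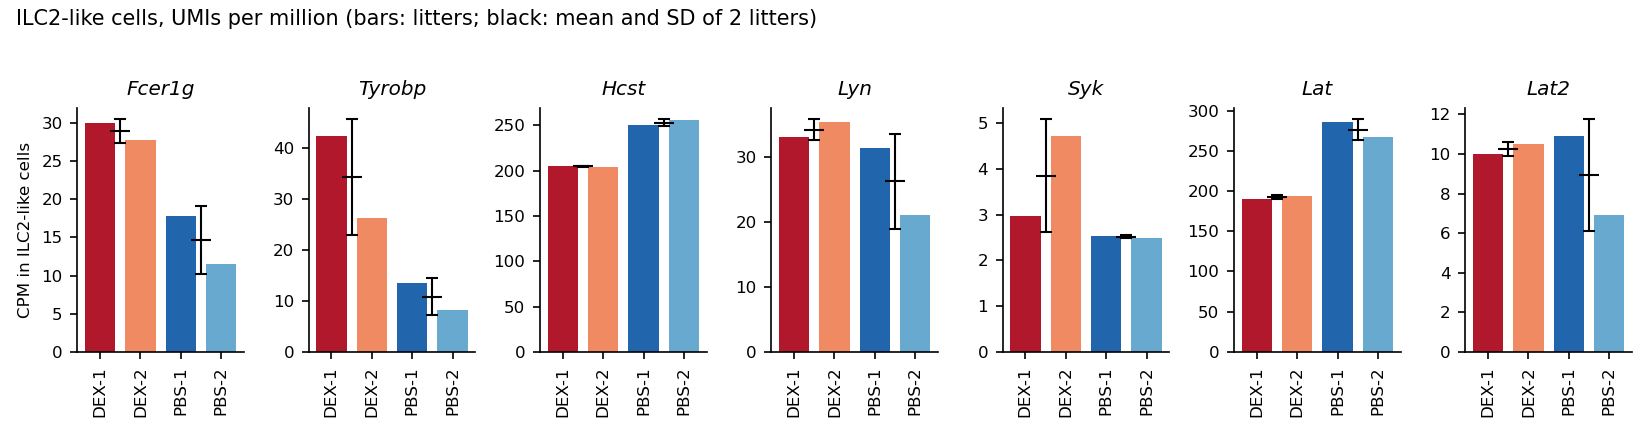
Bars are the CPM of 7 members in ILC2-like cells of each litter, with an own scale from 0 in every panel, and black marks are the mean and SD of the 2 litters of a group. Lat and Hcst were lower in both DEX litters, and Tyrobp and Fcer1g higher. For Hcst, Lyn, Syk and Lat2 the difference did not pass the test.

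The Tyrobp and Fcer1g UMIs of ILC2-like cells sat in few cells. In DEX-1, DEX-2, PBS-1 and PBS-2 the 5 cells with most Tyrobp UMIs held 68.3%, 62.0%, 83.02% and 60.5% of them. For Fcer1g these shares were 66.0%, 65.1%, 54.3% and 65.0%. Cells with 3 or more Tyrobp UMIs numbered 10, 8, 4 and 4. Of these 26 cells 61.5% held a UMI of Gata3, the transcription factor of ILC2s, 50% a UMI of the mast cell protease Cpa3 and 88.5% a UMI of Fcer1g, and 53.8% lay in the ILC2-like cluster led by Tcrg-C1 and S100a4. Of the 1976 ILC2-like cells without a Tyrobp UMI, 88.7% held Gata3, 13.7% Cpa3 and 3.64% Fcer1g, and 25.8% lay in that cluster. Cd7 was held by 38.5% of the 26 cells, 9.31% of the 1976 cells and 0.288% of mast-like cells. For Gzmb these shares were 23.1%, 2.78% and 9.66%.

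**Figure D4:**
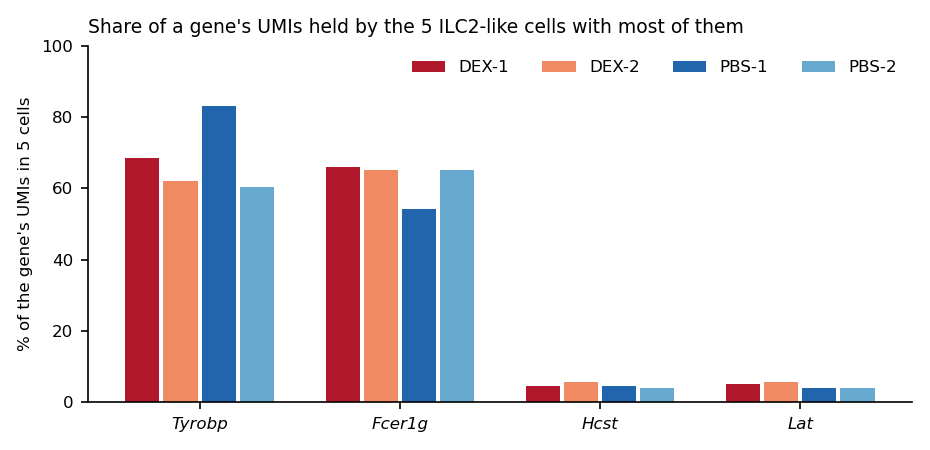
Bars give, for each litter, the percentage of a gene's UMIs in ILC2-like cells that was held by the 5 cells with most of them. Tyrobp and Fcer1g reached 54.3% to 83.02%, Hcst and Lat at most 5.80%.

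Thinned to 2000 UMIs per cell, 2.74%, 3.33%, 1.24% and 1.77% of ILC2-like cells held a Tyrobp UMI in DEX-1, DEX-2, PBS-1 and PBS-2 (26 cells were shallower and were left out). The Wilson 95% intervals, which cover counting error only, were 1.67% to 4.47%, 2.03% to 5.41%, 0.571% to 2.68% and 0.962% to 3.22% and overlapped, and the unthinned shares were 5.63%, 7.25%, 2.85% and 3.47%. The same thinning gave 15.8% of epithelial-like cells (median 17512 UMIs per cell before thinning), which should make little or no Tyrobp, against 2.25% of ILC2-like cells (median 7186). For Fcer1g the thinned share was 2.49% in ILC2-like cells against 17.2% in epithelial-like cells. Both ILC2-like shares lay below the epithelial-like ones, so no expression by ILC2-like cells is read from them.

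Mast cell RNA was measured beside these calls. The summed level of the 10 mast cell markers in ILC2-like cells was 306.5, 432, 325 and 364 CPM in DEX-1, DEX-2, PBS-1 and PBS-2, with none at 0, and the group ranges overlapped. Most of it was Kit, the stem cell factor receptor, with 233, 265, 208 and 270 CPM and the only marker found in at least 25% of cells. Cpa3 had 35.5, 60.9, 30.2 and 50.4 CPM, again with overlap. The 8 basophil markers summed to 9.42 to 15.5 CPM, with Aqp9 and Csrp3 at 0, and the 7 monocyte markers (none at 0) to 144 and 161 CPM in DEX against 136 and 103 CPM in PBS, without overlap. The 8 macrophage markers summed to 1.92 to 2.77 CPM, with Marco at 0. Without ILC2-like cells that held a UMI of Cpa3, Cma1 or Mcpt4, Tyrobp was at 0.98 ± 0.41 (edgeR adjusted p = 0.378) and Fcer1g at 0.53 ± 0.48 (edgeR adjusted p = 0.765), while Lat stayed at -0.56 ± 0.08 (edgeR adjusted p = 0.00165). Without the cluster led by Tcrg-C1 and S100a4, Tyrobp was at 1.27 (edgeR adjusted p = 0.299), Fcer1g at 0.57 (edgeR adjusted p = 0.802) and Lat at -0.58 (edgeR adjusted p = 0.00370). Without DEX-1 Fcer1g no longer passed (0.98, edgeR adjusted p = 0.0675), and without the cells of highest doublet score it stood at 0.85 (edgeR adjusted p = 0.115). Per 100 UMIs of Cpa3 there were 119, 43.1, 44.5 and 16.4 Tyrobp UMIs in ILC2-like cells of DEX-1, DEX-2, PBS-1 and PBS-2, with DEX-1 far above the others. The same ratio was 23.2 to 29.0 over litters in mast-like and 31.2 to 49.2 in epithelial-like cells. In basophil-like cells it was 179 to 373. Monocyte-like cells had 1536 to 25170, leaving out DEX-2, where they held 0 Cpa3 UMIs. The part of other cells' RNA in the DEX difference was not tested further.

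The other members of ILC2-like cells did not pass. Lyn had 33.2, 35.4, 31.5 and 21.1 CPM (0.41 ± 0.18, edgeR adjusted p = 0.337). Syk had 2.98, 4.72, 2.54 and 2.50 CPM (0.59 ± 0.41, edgeR adjusted p = 0.642), and Lat2 10.0, 10.5, 10.9 and 6.92 CPM (0.24 ± 0.26, edgeR adjusted p = 0.795). The median over the 7 tested members was 0.41 against 0.00 over all genes.

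The other pathway genes of ILC2-like cells are to be read against the 2.47% of all genes called in this fit. None of 18 tested downstream genes passed in the edgeR fit (6 at an unadjusted p under 0.05, 0 called by DESeq2). Of 8 tested Src family kinases and regulators, Src itself was higher in DEX, with 44.3 and 42.8 CPM against 28.2 and 27.3 CPM (0.66 ± 0.13, edgeR adjusted p = 0.0151), though DESeq2 called no gene of this list. Of 11 phosphatases and inhibitors, Dok2, an adaptor that dampens tyrosine kinase signals, was lower, with 136 and 123 CPM against 190 and 183 CPM (-0.52 ± 0.08, edgeR adjusted p = 0.00348), and DESeq2 called 1 gene of this list as well. None of 5 ITAM chains of antigen receptors passed in edgeR (2 at an unadjusted p under 0.05, 0 called by DESeq2), nor did Klrk1, the only partner receptor tested (edgeR adjusted p = 0.235).

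In mast-like cells (556 to 648 per litter), the main carriers of FcεRI, no gene of 10791 was called (0%), with 492 at an unadjusted p under 0.05 and 6 called by DESeq2. Of the 9 members, all tested, 1 had an unadjusted p under 0.05 (Lat) and DESeq2 called 0. Fcer1a had 69.4 and 50.7 CPM in DEX against 103 and 61.7 CPM in PBS, with overlap (-0.45 ± 0.24, edgeR adjusted p = 0.999). Ms4a2 had 75.1 and 98.3 CPM against 111 and 97.4 CPM, also with overlap (-0.25 ± 0.15, edgeR adjusted p = 0.999). Lat had 157 and 173 CPM against 196 and 202 CPM, without overlap (-0.26 ± 0.11, edgeR adjusted p = 0.999). The other 6 members were between -0.11 and 0.02. Leaving out DEX-1 gave 234 called genes, Fcer1a among them (-0.68, edgeR adjusted p = 0.00227), and leaving out DEX-2 gave 321 called genes with Fcer1a not among them (-0.21, edgeR adjusted p = 0.686).

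In basophil-like cells (67 to 177 per litter) no gene of 7440 was called (0%), with 112 at an unadjusted p under 0.05 and 1 called by DESeq2, and the 9 members (0 at an unadjusted p under 0.05 and 0 called by DESeq2) were between -0.20 ± 0.19 (Ms4a2) and 0.32 ± 0.22 (Lat2). In monocyte-like cells (24 to 83 per litter) 0.0403% of 4965 genes were called, none of the 5 tested members among them (0 at an unadjusted p under 0.05, 0 by DESeq2), which lay between -0.15 ± 0.09 (Fcer1g) and 0.07 ± 0.25 (Syk). The 5 pathway lists gave no call in edgeR or DESeq2 in any of these 3 classes, with at most 2 genes of a list at an unadjusted p under 0.05. With 2 litters per group these values do not show that the members were alike in DEX and PBS.

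**Figure D5:**
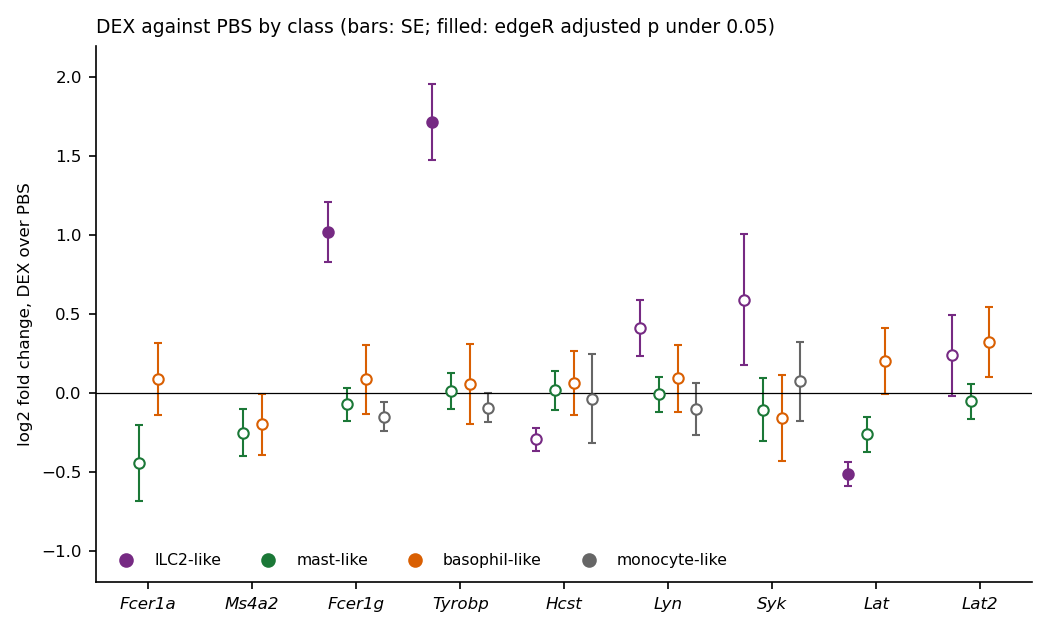
Points are log2 fold changes of DEX over PBS in 4 classes, and bars are SE worked out from the F value of the edgeR test. Filled points passed that test at an adjusted p of 0.05. The filled points are Tyrobp (1.72), Fcer1g (1.02) and Lat (-0.51) in ILC2-like cells, and no member was filled in the other classes.

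Whether the DEX effect differed between ILC2-like and mast-like cells was tested as an interaction, in which 0.171% of 11688 genes passed. All 9 members were tested, and Tyrobp (1.67 ± 0.20, edgeR adjusted p = 0.00596) and Fcer1g (1.08 ± 0.18, edgeR adjusted p = 0.0321) were called. For Lat the difference of -0.26 ± 0.14 did not pass (edgeR adjusted p = 1), so that its lower level in DEX litters was not shown to be particular to ILC2-like cells. Both calls were lost when PBS-1 or PBS-2 was left out (Tyrobp 1.99 and 1.36, edgeR adjusted p = 0.128 and 0.254), and they share the few cells and the low UMI counts given above.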

How the data were processed

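The deposited matrix holds UMI counts of genes and of 4 hashtag antibodies, made by the authors with Cell Ranger 7 on mm10, not normalized and with no depth scaling. All 4 litters share a single library, and hashtags were tied to litters by the antibody numbers in the labels. Barcodes with at least 200 genes and at most 5% mitochondrial UMIs were kept (10409 of 10648). HTODemux (Seurat 5.3.0, R 4.3.3, positive quantile 0.99) gave 7268 singlets, 736 hashtag doublets and 2405 barcodes with no hashtag, and doublets and barcodes with no hashtag were left out. Singlets held 18665955 to 23660294 gene UMIs per litter, and the numbers of cells and UMIs of a class, down to 24 monocyte-like cells in a litter, set the precision. Scrublet's own threshold marked 1 barcode and was not used, and an alternative left out the 3.38% of singlets with the highest scores, a limit that marked 30.7% of hashtag doublets. No barcode was listed more than once.

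Cells were scaled to 10000 UMIs and clustered with scanpy 1.11.5 (Python 3.11.15, 2000 variable genes, 20 components, 15 neighbours, Leiden resolution 1.0), with 81 genes kept out. Among these were the members and the pathway lists, except list genes that are also cell type markers. A cluster was named from fixed marker lists where at least 3 markers were found in 25% of its cells, the mean share was at least 30% and the next list reached at most 60% of it. No other list could have more markers among the 10 leading genes of the cluster than the best list. The Gzmb and Scin cluster met the first limits but not this one, and so stayed unnamed. A cluster of low depth with none of its own markers among its leading genes would also stay unnamed. The analysis is a rebuilt annotation, and names may differ from the study's. Members and lists were chosen with earlier results of these data known.

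UMI counts were summed per class and litter and tested over all genes with edgeR 4.0.16 (TMM, filterByExpr, quasi-likelihood test, two-sided, Benjamini-Hochberg adjusted p under 0.05). DEX was compared with PBS as 2 litters against 2. Classes were compared with the litter as a block, and the difference of DEX effects was tested as an interaction. The SE printed with an edgeR fold change is its absolute value divided by the square root of the test's F value. It is not an SD between litters. The edgeR test was also tried on simulated counts. DESeq2 1.42.0, other scalings and filters, other hashtag calls (MULTIseqDemux, or a ratio rule that asks for a top tag of at least 10 UMIs and 3 times the next), a mitochondrial limit of 10%, a resolution of 0.5, thinning to 1000 UMIs, a litter left out, doublet scores and subsets of cells were alternatives. The subsets of ILC2-like clusters and the library-total scaling were chosen after seeing the data. All 9 members were named. Of each list the called genes were named, up to 3 in each direction by size of fold change, and for each member the 3 genes with the highest r (genes with at least 10 CPM in a cluster). Fold changes of genes near 0 rest on the prior count and are given as UMIs instead. Macrophage-like and neutrophil-like classes were planned but no cluster met the rule, so they have no test. Some genes of the lists are not reported here.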

Additional observations from a re-analysis of the deposited data

Results flagged for a closer look

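The DEX effect differed between ILC2-like and mast-like cells for 2 members, by a test of the difference itself in edgeR over the 4 litters. For Tyrobp the effect was 1.67 higher on the log2 scale in ILC2-like cells (edgeR adjusted p = 0.00596), and its levels did not overlap between DEX and PBS litters in ILC2-like cells but did in mast-like cells. For Fcer1g it was 1.08 higher (edgeR adjusted p = 0.0321), again with litters apart in ILC2-like cells, while in mast-like cells the DEX litters were the lower ones and the change did not pass the test. The ILC2-like values rest on 395 Tyrobp and 377 Fcer1g UMIs in 2074 cells, most of them in the 5 top cells of each litter.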

How the results depend on the processing

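Among member values under alternatives, 3 of 116 changed sign for DEX against PBS in ILC2-like cells, 16 of 126 in mast-like, 13 of 117 in basophil-like and 4 of 55 in monocyte-like cells, 5 of 63 for the interaction and 0 of 63 for each comparison of classes, and 0 of these were values of called members. Counts of called members in ILC2-like cells are to be read against the share of all genes called in the same fit. That share was 2.47% in the main fit and 1.67% without cells that held a mast cell UMI. It was 1.4979% without clusters led by cell cycle genes and 1.5017% without the cluster led by Tcrg-C1 and S100a4. In that cluster alone it was 0.174%, so the lack of a called member there is no result about the members. In ILC2-like cells 3 members were called under DEX. That count was 1 without cells that held a mast cell UMI (Lat), 1 without clusters led by cell cycle genes, 1 without the cluster led by Tcrg-C1 and S100a4, 0 in that cluster alone, and 2 to 5 when a litter was left out, with 5 without PBS-1, where Hcst and Lyn (0.69, edgeR adjusted p = 0.00763) passed as well. In mast-like cells the count of 0 became 0 to 1 when a litter was left out (Fcer1a without DEX-1). For the interaction the count of 2 became 1 with MULTIseqDemux hashtag calls, where 0.0514% of all genes passed against 0.171% in the main fit. Among members that were not called, Syk in ILC2-like cells turned to -0.10 with MULTIseqDemux, and Lat2 turned to -0.26 in the Tcrg-C1 cluster alone and ranged from -0.082 to 0.56 when a litter was left out. The DEX minus PBS difference in Tyrobp-positive ILC2-like cells, 1.53 percentage points thinned, was 3.28 points without thinning and 0.653 points with MULTIseqDemux, against an SD of 0.394 points between litters. Hcst passed in ILC2-like cells with median-of-ratios factors (edgeR adjusted p = 0.0480), without the count filter (0.0223), with the ratio rule for hashtags (0.0395) and with a mitochondrial limit of 10% (0.0450). Mother numbers are shared by litters of different mothers and pair nothing, and the replicate block gave Tyrobp 1.67, Fcer1g 1.01, Lat -0.51 and Hcst -0.29 (edgeR adjusted p = 0.0102), 4 members called in all. In that fit 4.63% of all genes were called. In basophil-like against mast-like cells Lat2 lost its call in DESeq2 (adjusted p = 0.0727), at a Leiden resolution of 0.5 (edgeR adjusted p = 0.196) and without DEX-1, DEX-2 or PBS-1 (edgeR adjusted p = 0.116, 0.152 and 0.151), Fcer1g passed as lower at that resolution (-0.31, edgeR adjusted p = 0.0188) and Syk passed without DEX-1 (0.47, edgeR adjusted p = 0.0484). Lat in ILC2-like against mast-like cells also lost its call at that resolution (0.098, edgeR adjusted p = 0.25). The ratio rule and the resolution of 0.5 gave no monocyte-like class and so no value for it. Low counts limit Fcer1a, Ms4a2 and Syk in ILC2-like cells, where only large changes could be seen.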
